A study of Sus scrofa with 2 samples.

Results

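The potassium channel genes described here are the genes whose symbol in the deposited matrices starts with KCN, 87 of 31908 genes. They were grouped by symbol into 29 voltage-gated pore subunits (KCNA to KCNH and KCNV), 14 inward rectifiers (KCNJ), 14 two-pore channels (KCNK), 10 calcium- or sodium-activated channel genes (KCNM, KCNN and KCNT), 5 KCNQ and 3 KCNE genes. The symbol rule also brought in 4 KCNIP genes, 3 KCNAB genes and 5 others (KCNS, KCNRG and KCNU1). KCNIP, KCNAB and KCNE genes encode auxiliary subunits and not pores. Their transcripts were counted in single nuclei isolated from the free wall of the left ventricle, stored frozen, of pigs of the miniature Bama breed. The TG library came from triple-transgenic myocardium carrying PNPLA3I148M, GIPRdn and hIAPP, and the WT library from wild-type myocardium. Both groups had eaten a high-fat, high-sucrose diet for 12 months, so no library shows the heart on another diet. Ages, the number of animals behind a library and the promoters of the transgenes were not given in the sources used here.

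Potassium channels let potassium leave a cell and so set its resting potential and end its action potential. In cardiomyocytes, inward rectifiers hold the resting potential, transient outward and delayed rectifier channels repolarise the cell, and calcium-activated and ATP-sensitive channels tie potassium flow to calcium and energy state. In vessel walls, potassium channels of endothelium and smooth muscle set vascular tone, and in T lymphocytes they sustain calcium entry.

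The TG library held 14939 nuclei after filtering, with a median of 3937 UMIs (unique molecular identifiers, the counted transcripts), and the WT library 16725 nuclei with a median of 5442. The potassium channel genes took 198571 UMIs in TG and 350948 in WT. Of the barcodes, 81 occurred in both libraries. With 1 library per genotype, genotype and library cannot be told apart, no p-value is given, and every interval is a 95% interval of counting error alone. Levels are in CPM, the summed UMIs of a gene in a class scaled to 1000000 nuclear-encoded UMIs of that class, not divided by gene length, so they are compared between classes and libraries and not between genes. A gene was called apart between the libraries when it had at least 20 UMIs over both, its TG over WT ratio was at least 1.5 in either direction and the interval of the ratio left out 1. The 9 classes described held at least 100 nuclei in each library and were named "-like" from fixed markers.

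The markers that named each class were read back in it, which describes the classes and does not test their names. Of 12 cardiomyocyte markers, 7 stood highest in cardiomyocyte-like nuclei in TG and 11 in WT, and of the 11 macrophage markers all did so in macrophage-like nuclei of both. Of 15 vascular endothelial markers, 11 stood highest in their class in TG and 11 in WT. Markers of cardiomyocytes were found in every other class, at a higher median level in TG. The 12 cardiomyocyte markers, none at 0 in any class, stood at a median of 23.0% of their cardiomyocyte level in TG fibroblast-like nuclei and 7.23% in WT ones. Their medians were 23.9% in TG and 11.06% in WT among vascular endothelial-like nuclei, and 17.8% and 7.30% among lymphatic endothelial-like nuclei of TG and WT. In macrophage-like nuclei they were 43.1% in TG and 25.7% in WT, and in T or NK lymphocyte-like nuclei 47.6% in TG and 26.5% in WT. In pericyte-like nuclei they were 37.2% in TG and 10.8% in WT, in smooth muscle-like nuclei 64.5% in TG and 22.1% in WT, and in Schwann-like nuclei 51.7% in TG and 28.2% in WT. Single markers lay far from these medians. They ranged from 5.76% to 243% in TG pericyte-like, 5.21% to 167% in TG smooth muscle-like and 4.48% to 175% in TG fibroblast-like nuclei. In WT the ranges of these classes were 1.38% to 58.1%, 1.52% to 115% and 2.36% to 38.3%. A median is thus not the level of every cardiomyocyte gene in a class. A cardiomyocyte channel gene read in one of these classes therefore sits beside a cardiomyocyte marker level that itself differed between the libraries, and the part of that level in the results was not tested.

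The potassium channel genes were spread over the classes, and 7 of the 9 classes held genes that led there in both libraries. Over the 9 classes, 62 of the 87 genes had at least 20 UMIs, 25 had fewer, and 6 of those 25 (KCNA7, KCNA10, KCNF1, KCNJ1, KCNS2 and KCNV1) had none. A gene was said to lead in a class of a library when the lower bound of its interval there lay above the upper bounds in all other classes. By that rule 26 genes led in a class in TG and 31 in WT, and 21 led in the same class in both. The share of all genes that lead by this rule is not given here, so these counts are descriptions only. Of these 21, 8 led in cardiomyocyte-like nuclei (KCNA4, KCNH2, KCNIP2, KCNJ2, KCNJ3, KCNQ1, KCNT2 and KCNU1) and 4 in smooth muscle-like nuclei (KCNAB1, KCNB2, KCNMA1 and KCNMB1). T or NK lymphocyte-like nuclei held 3 (KCNA3, KCNAB2 and KCNQ5), macrophage-like nuclei 2 (KCNIP1 and KCNK13) and vascular endothelial-like nuclei 2 (KCNC1 and KCNE3). KCNJ8 led in pericyte-like and KCNMB4 in Schwann-like nuclei, and no gene led in fibroblast-like or lymphatic endothelial-like nuclei of both libraries. The 1 gene that led in different classes was KCNN2, in vascular endothelial-like nuclei in TG (548 CPM) and in cardiomyocyte-like nuclei in WT (543 CPM). In RefSeq for Sscrofa11.1, KCNJ3 spans 62263913 to 62415915 on chromosome 15, KCNN2 118439328 to 118882299 on chromosome 2 and KCNN3 94913631 to 95112845 on chromosome 4. KCNMA1 spans 79345382 to 80106337 on chromosome 14, KCND3 108394687 to 108621514 on chromosome 4 and KCNIP1 53272652 to 53694974 on chromosome 16. The counts are over whole genes, and the files do not split them by exon.

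**Figure D1:**
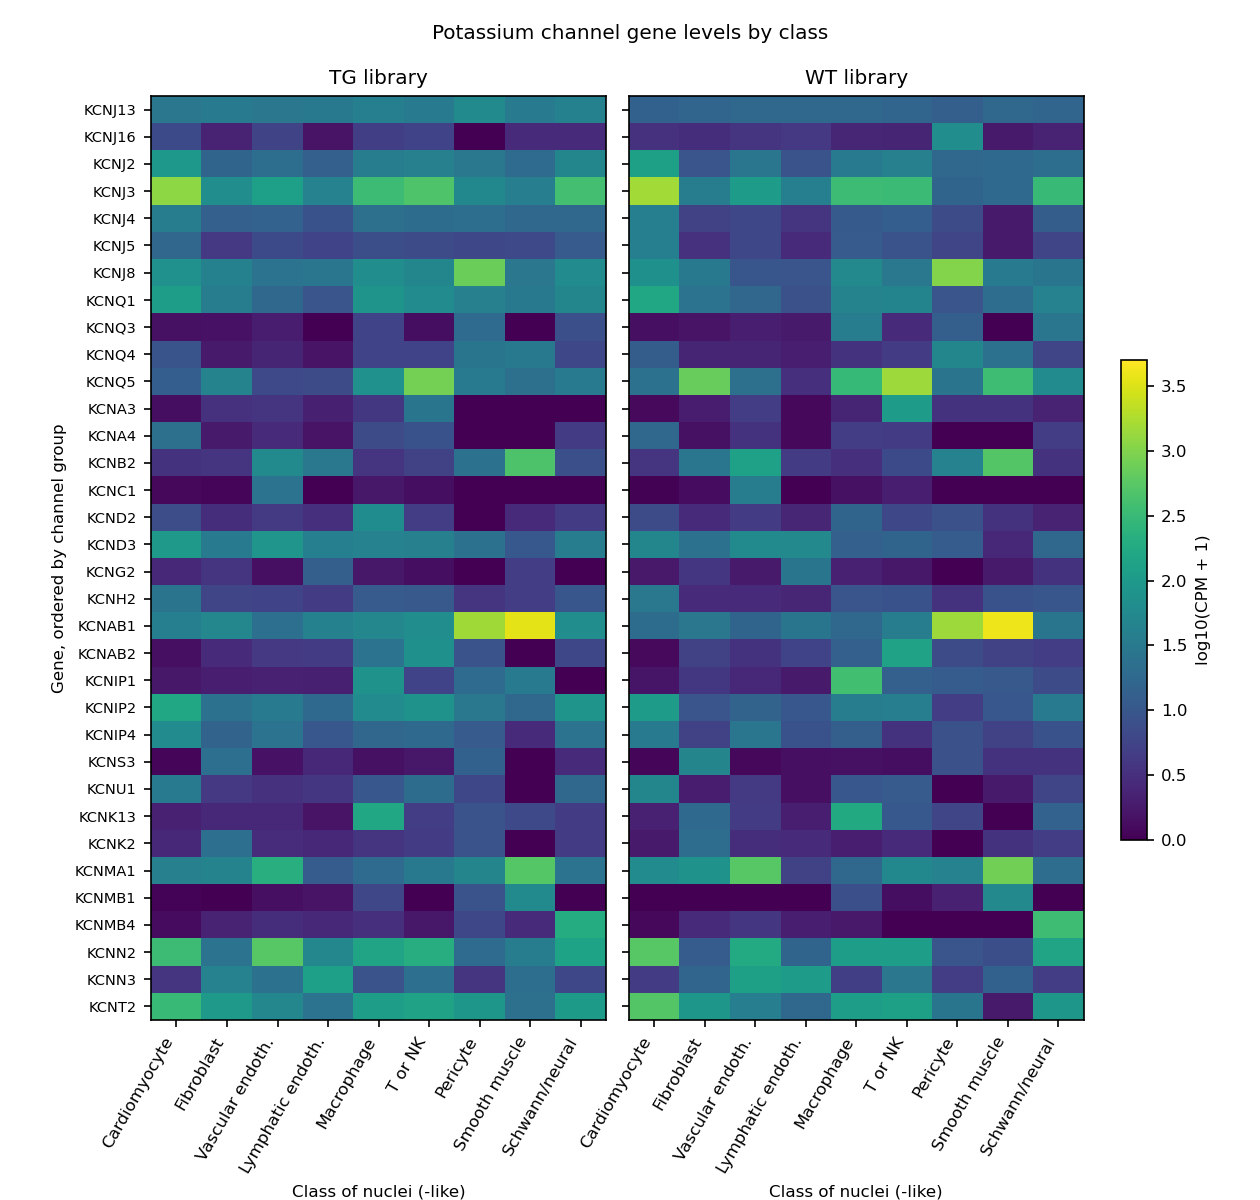
Levels, as log10(CPM + 1), of 34 potassium channel genes that reached 20 CPM in a class, in TG (left) and WT (right). Rows are genes ordered by channel group, columns the 9 classes, and brighter colours are higher levels. KCNJ3 is brightest in cardiomyocyte-like, KCNAB1 in smooth muscle-like and KCNQ5 in T or NK lymphocyte-like nuclei of both libraries, and KCNQ5 is bright in fibroblast-like nuclei of WT and dim in those of TG.

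In cardiomyocyte-like nuclei (5326 in TG and 6807 in WT), 50 potassium channel genes were measured with at least 20 UMIs. Of these, 12 were higher in TG and 8 lower. Of all 18895 genes measured in that class, 25.6% were higher in TG and 8.77% lower, and 34.4% were apart in either direction. The genes' share apart was 40% and their median log2 ratio 0.09, beside 0.08 over all genes, both close to the background. Among those that reached 20 CPM, 4 were higher, 5 lower and 9 neither. By group, 3 of 14 measured voltage-gated pores were higher and 1 lower, 2 of 10 inward rectifiers were higher and 2 lower, 2 of 4 KCNIP genes and 1 of 3 KCNAB genes were higher, and 1 of 4 KCNQ genes was lower. KCNE3, the 1 KCNE gene measured, was higher from 59 UMIs in TG and 21 UMIs in WT. No cluster of this class was shared evenly. Most TG nuclei lay in cluster 1 (2749 TG and 39 WT nuclei) and cluster 3 (2360 TG and 123 WT), and most WT nuclei in cluster 0 (24 TG and 4531 WT) and cluster 5 (193 TG and 2114 WT).

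Among the inward rectifiers, KCNJ3 and KCNJ5 encode the 2 subunits of the acetylcholine-activated channel that slows the heart, best known from atrium. KCNJ3 stood at 1175 CPM in the TG library and 1555 CPM in the WT library, a ratio of 0.755 (interval 0.748 to 0.763) that lies inside the 1.5-fold limit. KCNJ5 stood at 15.5 CPM in TG and 38.9 CPM in WT and was 2.51-fold lower in TG (interval 2.31 to 2.73). Both values were below those of WT, and KCNJ5 alone passed the limit. In cluster 3, KCNJ3 had 1070.0 CPM in TG and 1630.3 CPM in WT nuclei, and in cluster 5 it had 695 CPM in TG and 1406 CPM in WT nuclei. In cluster 3, KCNJ5 had 15.5 CPM in TG and 39.9 CPM in WT nuclei, so the order of the libraries was the same for both genes there, in clusters that were each over 90% of 1 library.

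KCNJ2, which encodes the main channel of the inward rectifier current that holds the ventricular resting potential, stood at 93.6 CPM in TG and 127 CPM in WT, a ratio of 0.737 (interval 0.711 to 0.764). KCNJ4, a relative in the same current, stood at 35.4 CPM in TG and 38.3 CPM in WT. Neither was apart. KCNJ8 and KCNJ11 encode the pores of ATP-sensitive channels, which open when ATP falls. KCNJ8 stood at 74.4 CPM in TG and 71.9 CPM in WT with a ratio of 1.03 (interval 0.99 to 1.08), and KCNJ11 at 3.17 CPM in TG and 3.33 CPM in WT with a ratio of 0.952 (interval 0.772 to 1.17). Their regulatory partner ABCC9 stood at 15.6 CPM in TG and 15.6 CPM in WT, so none of the 3 was apart in cardiomyocyte-like nuclei.

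KCNJ13 was the inward rectifier furthest above WT among those that reached 20 CPM. It stood at 28.4 CPM in TG and 13.01 CPM in WT and was 2.18-fold higher in TG (interval 2.01 to 2.38). KCNJ13 encodes a channel known from epithelia, and its gene, at chromosome 15, 133239843 to 133249630 in Sscrofa11.1, lies within the span of GIGYF2. Whether the counting used strand was not given in the sources used here, and reads of the 2 genes cannot be told apart. KCNJ13 ranged over the 9 classes from 28.1 CPM in vascular endothelial-like to 55.1 CPM in pericyte-like nuclei of TG, and from 12.2 CPM in pericyte-like to 16.8 CPM in lymphatic endothelial-like nuclei of WT. It was higher in TG in 8 of the 9 classes, the exception being smooth muscle-like nuclei.

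The voltage-gated genes of the transient outward current, which shapes early repolarisation, differed in 1 case of 4. KCND3, a pore subunit of that current, stood at 95.5 CPM in TG and 48.2 CPM in WT and was 1.98-fold higher in TG (interval 1.90 to 2.07). KCNIP2, the auxiliary subunit that KCND channels need for full current, stood at 159 CPM in TG and 110.0 CPM in WT, a ratio of 1.44 (interval 1.40 to 1.49) just inside the 1.5-fold limit. With the total taken without the most abundant gene, the log2 ratio of KCNIP2 was above that limit. KCND2, the other pore subunit of the current, stood at 6.59 CPM in TG and 6.01 CPM in WT, and KCNA4, which carries its slowly recovering part, at 22.1 CPM in TG and 16.3 CPM in WT with a ratio of 1.36 (interval 1.25 to 1.47). KCND3 was thus apart, and KCNIP2, KCND2 and KCNA4 were not. In cluster 3, KCND3 had 93.9 CPM in TG and 37.1 CPM in WT nuclei, and in cluster 5 it had 96.1 CPM in TG and 55.4 CPM in WT nuclei. DPP6 and DPP10, which encode peptidase-like partners of KCND channels, were both called higher, DPP6 at 2.48 CPM in TG and 1.62 CPM in WT and DPP10 at 4.99 CPM in TG and 1.66 CPM in WT.

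KCNIP4, a relative of KCNIP2 known from brain, stood at 60.2 CPM in TG and 31.7 CPM in WT and was 1.90-fold higher in TG (interval 1.80 to 2.01). Its level depended on the cluster: it had 76.3 CPM in the TG nuclei of cluster 1, but 30.00 CPM in TG and 31.6 CPM in WT in cluster 3 and 21.5 CPM in TG and 23.6 CPM in WT in cluster 5. KCNAB1, an auxiliary beta subunit of voltage-gated channels whose span overlaps that of SSR3, stood at 38.4 CPM in TG and 19.2 CPM in WT and was 2.00-fold higher in TG (interval 1.86 to 2.14). In cluster 3, KCNAB1 had 38.1 CPM in TG and 20.6 CPM in WT nuclei, and in cluster 5 it had 41.7 CPM in TG and 20.05 CPM in WT nuclei. In clusters 3 and 5, where the smaller library had 123 and 193 nuclei, the KCNAB1 values were higher in TG and the KCNIP4 values were close. KCNAB1 stood far higher in TG pericyte-like (1478 CPM) and smooth muscle-like nuclei (3495 CPM). Of the markers of these classes read in cardiomyocyte-like nuclei, 9 of 11 pericyte markers were higher in TG and 1 lower. Of 8 smooth muscle markers 2 were higher and 3 lower. Their part in the KCNAB1 value was not tested.

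KCNQ1, KCNE1 and KCNH2, of the delayed rectifier currents that end the action potential, were not apart. KCNQ1, the pore of the slow current, stood at 119 CPM in TG and 157 CPM in WT with a ratio of 0.762 (interval 0.738 to 0.786). Its partner KCNE1, named in a reference table and not by the symbol rule, stood at 69.2 CPM in TG and 57.6 CPM in WT with a ratio of 1.20 (interval 1.15 to 1.26). KCNH2, the pore of the rapid current, stood at 25.3 CPM in TG and 29.4 CPM in WT with a ratio of 0.861 (interval 0.802 to 0.924). KCNQ5 was low in this class, at 11.6 CPM in TG and 24.04 CPM in WT, and was 2.07-fold lower in TG (interval 1.88 to 2.28).

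The calcium- and sodium-activated channel genes of cardiomyocyte-like nuclei were lower in TG where they were apart, with 3 of 6 measured lower and none higher. KCNN2, a small-conductance calcium-activated channel, stood at 348 CPM in TG and 543 CPM in WT and was 1.56-fold lower in TG (interval 1.53 to 1.59). KCNT2, a sodium-activated channel, stood at 306 CPM in TG and 506 CPM in WT and was 1.66-fold lower in TG (interval 1.62 to 1.69). KCNMA1, the pore of the large-conductance calcium-activated channel, stood at 39.3 CPM in TG and 60.6 CPM in WT and was 1.54-fold lower in TG (interval 1.46 to 1.63). The 3 folds lay between 1.54 and 1.66, near the 1.5-fold limit. With the total taken without the most abundant gene, an unnamed locus that held 13.9% of this class's counts in TG and 6.37% in WT, the log2 ratios of KCNN2 and KCNMA1 were -0.52 and -0.50, inside the limit. In cluster 3, KCNN2 had 322 CPM in TG and 531 CPM in WT nuclei and KCNT2 had 274 CPM in TG and 505 CPM in WT nuclei, whereas KCNMA1 had 40.6 CPM in TG and 46.8 CPM in WT nuclei. KCNN3 was not apart, at 2.74 CPM in TG and 3.57 CPM in WT, and KCNN1 and KCNN4 had fewer than 20 UMIs.

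The two-pore channels, background channels that hold the membrane near the potassium potential, were low. KCNK2, opened by stretch, stood at 1.54 CPM in TG and 0.842 CPM in WT and was 1.83-fold higher in TG (interval 1.29 to 2.61), from 72 and 63 UMIs. KCNK3, an acid-sensitive member, stood at 1.20 CPM in TG and 0.895 CPM in WT and was not apart. KCNK1 had 3 UMIs in TG and 6 UMIs in WT, too few to measure. Of 14 genes of this group, 6 were measured here, of which 2 were higher and 1 was lower.

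**Figure D2:**
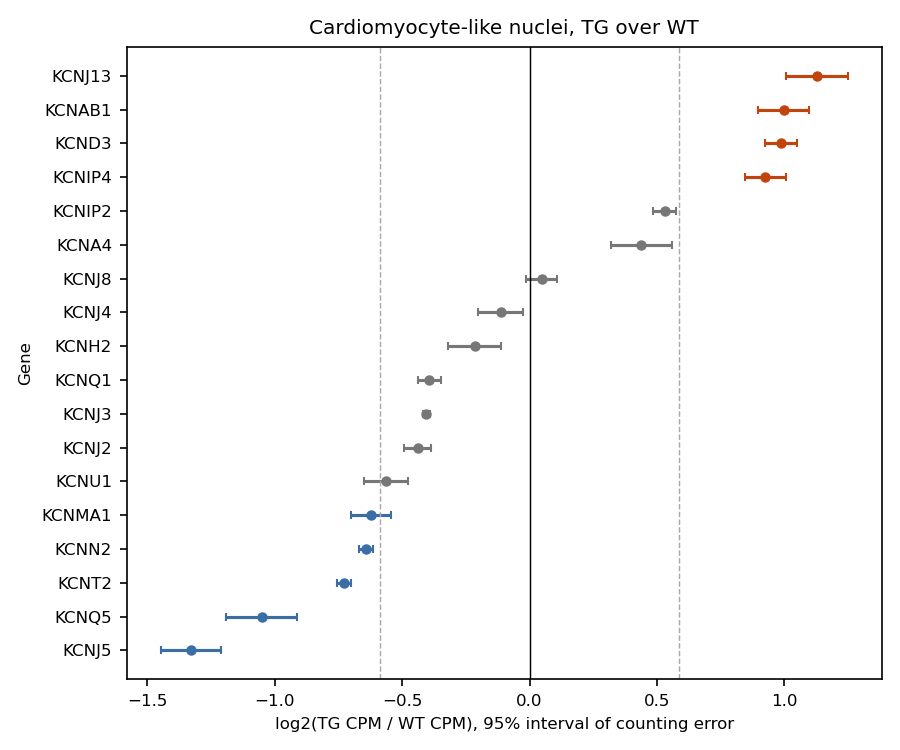
Log2 TG over WT ratio, with its 95% interval of counting error, of the 18 potassium channel genes that reached 20 CPM in cardiomyocyte-like nuclei. Red points are called higher in TG, blue points lower and grey points neither, and dashed lines mark a ratio of 1.5 in either direction. KCNJ13, KCNAB1, KCND3 and KCNIP4 lie to the right, KCNMA1, KCNN2, KCNT2, KCNQ5 and KCNJ5 to the left, and KCNU1 and KCNIP2 close to the lines.

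KCNQ5, at chromosome 1, 52435332 to 52939705 in Sscrofa11.1, encodes a channel of the slow M-type current of neurons and vascular smooth muscle. Among the potassium channel genes it differed between the libraries in the most classes in one direction other than KCNJ13: it was lower in TG in 7 of 9. In fibroblast-like nuclei it stood at 43.5 CPM (95% interval 38.3 to 49.2) in TG and 691 CPM (95% interval 677 to 706) in WT, which was 15.9-fold lower in TG (interval 14.02 to 18.1). In smooth muscle-like nuclei it stood at 22.6 CPM (95% interval 11.7 to 39.4) in TG and 360.3 CPM (95% interval 327 to 396) in WT, 15.96-fold lower in TG (interval 9.04 to 31.1). UMIs of KCNQ5 were found in 6.09% of TG and 38.1% of WT fibroblast-like nuclei. After thinning each nucleus to 1000 UMIs, which left out 31 shallower WT nuclei and no TG nucleus, the shares were 2.87% in TG and 25.2% in WT, beside 0.807% in TG and 1.77% in WT cardiomyocyte-like nuclei. The median depth of kept nuclei was lower in TG, as given above. In these 2 classes KCNQ5 was thus a gene of many UMIs in WT and of few in TG.

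In macrophage-like nuclei KCNQ5 stood at 74.5 CPM in TG and 300.3 CPM in WT and was 4.03-fold lower in TG (interval 3.58 to 4.55). In T or NK lymphocyte-like nuclei, its highest class in both libraries, it stood at 834 CPM in TG and 1455 CPM in WT and was 1.74-fold lower in TG (interval 1.66 to 1.84). That lymphocyte difference was not stable. The log2 ratio of -0.80 became -0.50 with every nucleus weighted equally and -0.00121 with a library-wide profile of free RNA taken off. In vascular endothelial-like nuclei KCNQ5 stood at 5.56 CPM in TG and 22.03 CPM in WT, but of the 107 UMIs in WT 33 came from 1 nucleus. In Schwann-like nuclei it stood at 32.1 CPM in TG and 60.6 CPM in WT, with 28 of 49 WT UMIs in 1 nucleus, without which its log2 ratio was -0.51, inside the limit. In pericyte-like nuclei it stood at 34.1 CPM in TG and 25.5 CPM in WT and was not apart. Of the 21 WT UMIs there, 17 lay in 1 nucleus, and only 3 WT nuclei had any. In lymphatic endothelial-like nuclei, the only class where it was called higher in TG, it stood at 6.28 CPM in TG and 2.10 CPM in WT, from 11 and 10 UMIs.

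The fibroblast-like and smooth muscle-like values of KCNQ5 go with clusters that few TG nuclei entered. WT fibroblast-like nuclei lay mostly in cluster 2 (33 TG and 2590 WT nuclei), TG ones in cluster 6 (1955 TG and 59 WT), and cluster 21 held 206 WT nuclei and 0 TG nuclei. KCNQ5 had 601 CPM in the WT nuclei of cluster 2 and 2412 CPM in those of cluster 21. In cluster 6 it had 39.5 CPM in TG and 188 CPM in WT, a ratio of 0.21 (interval 0.154 to 0.292), though only 59 WT nuclei lay there. Smooth muscle-like nuclei lay in cluster 101 (172 TG and 99 WT) and cluster 103 (2 TG and 185 WT). KCNQ5 had 22.8 CPM in TG and 2.64 CPM in WT in cluster 101, and 524 CPM in the WT nuclei of cluster 103. In smooth muscle the lower class value of TG therefore lay with cluster 103, and in cluster 101, which both libraries share, the order was the opposite. In both macrophage-like clusters KCNQ5 was lower in TG, with 65.2 CPM in TG and 320.1 CPM in WT in cluster 7 and 78.4 CPM in TG and 274 CPM in WT in cluster 12.

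**Figure D3:**
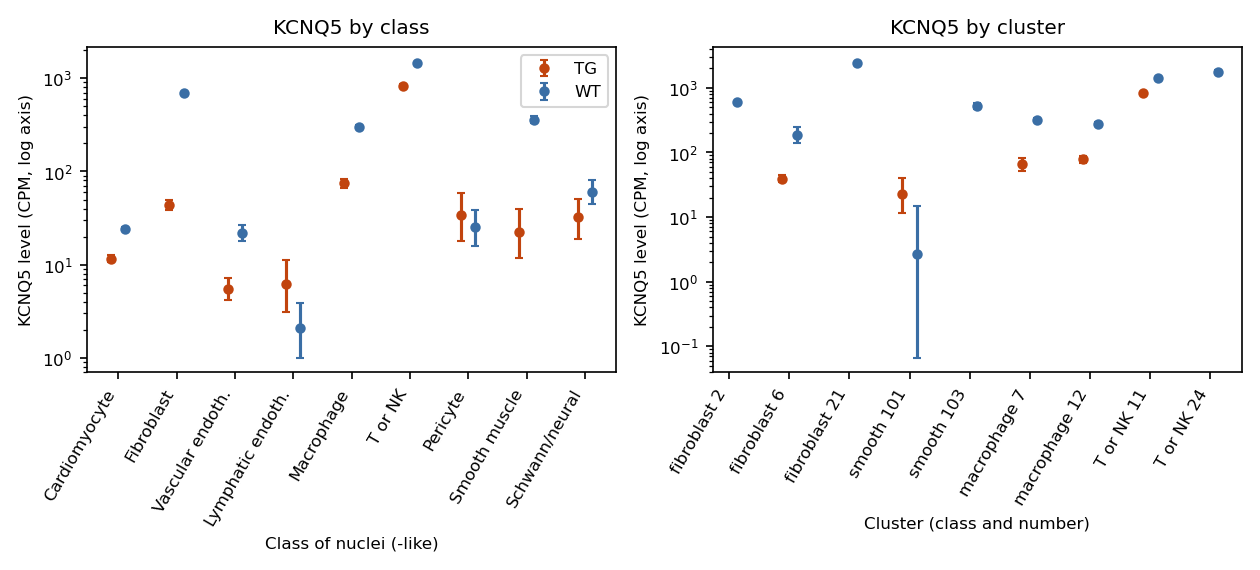
KCNQ5 level in CPM on a log axis with 95% intervals of counting error, by class (left) and by cluster within 4 classes (right), TG in red left of WT in blue. Clusters are drawn for a library with at least 40 nuclei there. The WT points of fibroblast-like and smooth muscle-like nuclei lie far above the TG points, and the WT points of fibroblast cluster 21 and smooth muscle cluster 103 have no TG point beside them.

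In vascular endothelial-like nuclei (2884 in TG and 1310 in WT), 36 potassium channel genes were measured, of which 6 were higher in TG and 6 lower. Over all genes measured there, 12.7% were higher and 7.81% lower, 20.5% in either direction, and the channel genes' share was 33.3%. With TG and WT clustered separately, 4 genes were higher and 16 lower, a different split. The nuclei compared were not the same. Joint clustering set aside 525 TG and 426 WT nuclei as vascular endothelial mixed with cardiomyocyte, and separate clustering set aside no such cluster. The part of this in the split was not tested. The calcium-activated genes differed in both directions. KCNN2 stood at 548 CPM in TG and 183 CPM in WT and was 3.00-fold higher in TG (interval 2.80 to 3.23). KCNN3, whose channel takes part in endothelium-dependent relaxation of arteries, stood at 22.8 CPM in TG and 125 CPM in WT and was 5.49-fold lower in TG (interval 4.71 to 6.41). KCNMA1 stood at 208 CPM in TG and 543 CPM in WT and was 2.62-fold lower in TG (interval 2.47 to 2.77). KCNN2 was thus higher and KCNN3 and KCNMA1 lower in the same class. UMIs of KCNN2 lay in 43.0% of TG and 14.6% of WT nuclei, and in 27.1% of TG and 7.45% of WT nuclei after thinning to 1000 UMIs, beside 1.46% of TG and 0.531% of WT fibroblast-like nuclei thinned the same way. The span of KCNN3 overlaps that of PMVK, and reads of the 2 genes cannot be told apart.

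These genes differed between the endothelial clusters. Cluster 4 (1782 TG and 663 WT nuclei) led with LNX1 and BTNL9, cluster 9 (757 TG and 503 WT) with STC1 and LRFN5, and cluster 16 (345 TG and 144 WT) with GJA5, a gap junction gene of arterial endothelium. KCNN2 was higher in TG in all 3, with 607 CPM in TG and 218 CPM in WT nuclei of cluster 4, 236 CPM in TG and 26.4 CPM in WT nuclei of cluster 9 and 933 CPM in TG and 549 CPM in WT nuclei of cluster 16. KCNN3 was found mainly in cluster 16, at 112 CPM in TG and 708 CPM in WT nuclei, a ratio of 0.158 (interval 0.133 to 0.187). KCNMA1 was found mainly in cluster 9, at 584 CPM in TG and 1089 CPM in WT nuclei, a ratio of 0.536 (interval 0.504 to 0.57). The 3 differences of the whole class were therefore also present in the cluster where each gene was found.

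KCNB2, a delayed rectifier pore, and KCNC1, a fast delayed rectifier pore, were likewise genes of cluster 9. KCNB2 stood at 56.2 CPM in TG and 132 CPM in WT in the class, 2.35-fold lower in TG (interval 2.10 to 2.64), and at 182 CPM in TG and 281 CPM in WT nuclei of cluster 9. KCNC1 stood at 24.6 CPM in TG and 35.4 CPM in WT in the class, a ratio of 0.695 (interval 0.57 to 0.849), and at 81.5 CPM in TG and 76.95 CPM in WT nuclei of cluster 9. Within cluster 9 KCNC1 was close to even between the libraries, while KCNB2 was lower in TG. KCNE3, an auxiliary subunit, stood at 19.8 CPM in TG and 17.5 CPM in WT and was not apart, but its clusters went opposite ways, with 8.64 CPM in TG and 33.6 CPM in WT nuclei of cluster 4 and 91.4 CPM in TG and 29.6 CPM in WT nuclei of cluster 16. KCND3 stood at 84.3 CPM in TG and 58.9 CPM in WT, a ratio of 1.43 (interval 1.25 to 1.64), KCNJ3 at 123 CPM in TG and 107 CPM in WT and KCNT2 at 51.01 CPM in TG and 37.7 CPM in WT, and none of these was apart. With TG and WT clustered separately, the log2 ratio of KCNJ3 was -3.01 and that of KCNT2 -1.98, so these 2 values rest on the joint clustering.

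**Figure D4:**
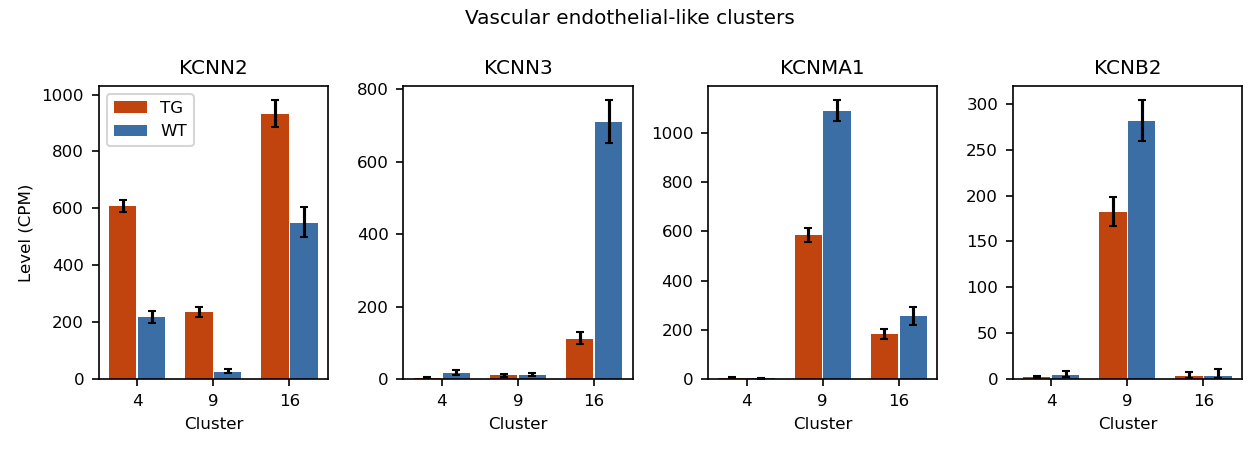
Levels in CPM of KCNN2, KCNN3, KCNMA1 and KCNB2 in the 3 vascular endothelial-like clusters, TG bars in red left of WT bars in blue, with 95% intervals of counting error. KCNN2 bars are higher in TG in clusters 4, 9 and 16, KCNN3 stands mainly in cluster 16 and KCNMA1 and KCNB2 mainly in cluster 9, all 3 lower there in TG.

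Besides KCNN2, KCNJ8, KCNIP2 and KCNJ13 reached 20 CPM and were called higher in vascular endothelial-like nuclei of TG. KCNJ8 stood at 24.8 CPM in TG and 8.85 CPM in WT, KCNIP2 at 31.3 CPM in TG and 14.00 CPM in WT and KCNJ13 at 28.1 CPM in TG and 16.3 CPM in WT. The cardiomyocyte markers stood higher in this class in TG as given above. Under separate clustering of TG and WT, the log2 ratio of KCNIP2 was -0.48 and that of KCNJ8 -0.04, so their direction rests on the joint clustering. That of KCNN2 was 0.88 when mixed clusters were counted in, still higher in TG.

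The mural cells of vessels, pericytes and smooth muscle, held the highest levels of several channel genes. In pericyte-like nuclei (151 in TG and 284 in WT), 12 genes were measured, 4 higher in TG and 1 lower, a share of 41.7% against 18.6% of all genes in either direction (10.1% higher and 8.53% lower). KCNJ8, the pore of the ATP-sensitive channel of vessel walls, stood at 740.5 CPM in TG and 1040.2 CPM in WT, a ratio of 0.712 (interval 0.62 to 0.815). Its partner ABCC9 stood at 97.2 CPM in TG and 153 CPM in WT and was called lower, at a ratio of 0.634 (interval 0.427 to 0.922). Both values were below those of WT, and ABCC9 alone passed the limit. KCNAB1 stood at 1478 CPM in TG and 1424 CPM in WT, a ratio of 1.04 (interval 0.937 to 1.15).

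The genes called higher in pericyte-like nuclei of TG were those read in cardiomyocyte-like nuclei as well. KCNQ1 stood at 39.4 CPM in TG and 8.51 CPM in WT, KCNJ3 at 52.5 CPM in TG and 14.6 CPM in WT, KCNT2 at 89.3 CPM in TG and 26.7 CPM in WT and KCNJ13 at 55.1 CPM in TG and 12.2 CPM in WT. These values rest on 15 to 34 UMIs in TG, beside cardiomyocyte markers at 37.2% of their cardiomyocyte level in TG and 10.8% in WT. Counting mixed clusters in brought the log2 ratio of KCNT2 to 0.09 and that of KCNJ3 to 0.37. The 1 gene called lower, KCNJ16, had 0 UMIs in TG and 52 UMIs in WT. Of those WT UMIs 51 lay in 1 nucleus, and without it the log2 ratio was -0.47.

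In smooth muscle-like nuclei (174 in TG and 284 in WT), 16 genes were measured, 3 higher in TG and 2 lower, a share of 31.2% against 25.6% of all genes (15.6% higher and 10% lower). KCNAB1 was highest here of all classes, at 3495 CPM in TG and 4029 CPM in WT, a ratio of 0.867 (interval 0.822 to 0.915). KCNB2 stood at 461 CPM in TG and 519 CPM in WT with a ratio of 0.887 (interval 0.762 to 1.03), and KCNMB1, the smooth muscle beta subunit of the KCNMA1 channel, at 58.3 CPM in TG and 53.8 CPM in WT with a ratio of 1.08 (interval 0.682 to 1.69). None of these 3 was apart. KCNMA1 stood at 534 CPM in TG and 829 CPM in WT and was called lower, at 1.55-fold lower in TG (interval 1.36 to 1.78). In cluster 101, which both libraries share, it had 530.0 CPM in TG and 329.7 CPM in WT, the opposite order, while the WT nuclei of cluster 103 had 1058 CPM. With the free RNA profile taken off, the log2 ratio of KCNMA1 was 0.11. The class value of KCNMA1 thus depends on cluster 103, which held 2 TG nuclei.

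KCNN2, KCNJ3 and KCNIP1 were called higher in smooth muscle-like nuclei of TG from few UMIs. KCNN2 stood at 35.7 CPM in TG and 6.63 CPM in WT, from 19 and 8 UMIs. KCNJ3 stood at 37.6 CPM in TG and 17.4 CPM in WT, from 20 and 21 UMIs. KCNIP1 stood at 31.98 CPM in TG and 9.94 CPM in WT, from 17 and 12 UMIs. With mixed clusters counted in, the log2 ratio was -0.64 for KCNN2 and -1.86 for KCNJ3, the opposite direction. KCNMB1 lies within the span of KCNIP1 on chromosome 16, and reads of the 2 genes cannot be told apart without strand.

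In macrophage-like nuclei (900 in TG and 1672 in WT), 36 genes were measured, of which 11 were higher in TG and 5 lower. Over all genes there, 19.9% were higher and 9.01% lower, 28.9% in either direction, and the channel genes' share was 44.4%. KCNIP1, an auxiliary subunit of KCND channels known from brain, stood at 77.7 CPM in TG and 385 CPM in WT and was 4.95-fold lower in TG (interval 4.41 to 5.57). UMIs of KCNIP1 were found in 158 of 900 TG nuclei and 672 of 1672 WT nuclei, so the level was carried by many nuclei. After thinning every nucleus to 1000 UMIs, 9.11% of TG nuclei and 24.2% of WT nuclei had KCNIP1, against 0.0563% of TG and 0.149% of WT cardiomyocyte-like nuclei. KCNIP1 was lower in TG in cluster 7, at 147 CPM in TG and 487 CPM in WT nuclei, and in cluster 12, at 48.8 CPM in TG and 248 CPM in WT nuclei. Under separate clustering of the libraries its log2 ratio was -1.47, a smaller difference in the same direction.

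KCND2, a pore that KCNIP1 can bind, went the other way. It stood at 62.9 CPM in TG and 14.8 CPM in WT and was 4.26-fold higher in TG (interval 3.43 to 5.32), with 129.6 CPM in TG and 16.6 CPM in WT nuclei of cluster 7. KCND3 stood at 42.01 CPM in TG and 12.6 CPM in WT and was called higher, but under separate clustering its log2 ratio was -0.53, the opposite direction. That of KCND2 was 3.06 there, in the same direction. KCNQ3, the neuronal partner of KCNQ5 in the M-type current, stood at 4.61 CPM in TG and 35.8 CPM in WT and was 7.77-fold lower in TG (interval 4.89 to 13.1). Both KCNQ3 and KCNQ5 were thus lower in TG macrophage-like nuclei.

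KCNK13, a two-pore channel known from microglia, marked macrophage-like nuclei in both libraries and was not apart between them. It stood at 164 CPM in TG and 173 CPM in WT, a ratio of 0.946 (interval 0.863 to 1.04). KCNQ1 at 82.6 CPM in TG and 43.9 CPM in WT, KCNIP2 at 60.5 CPM in TG and 34.7 CPM in WT, KCNJ4 at 22.6 CPM in TG and 10.1 CPM in WT, KCNJ13 at 38.1 CPM in TG and 16.04 CPM in WT, KCNAB1 at 50.99 CPM in TG and 16.9 CPM in WT and KCNAB2 at 25.01 CPM in TG and 12.4 CPM in WT were called higher. KCNQ1, KCNIP2 and KCNJ4 stood higher still in cardiomyocyte-like nuclei, and the cardiomyocyte markers were at 43.1% of their cardiomyocyte level in TG macrophage-like nuclei and 25.7% in WT ones. Vascular endothelial markers summed to 1579 CPM in TG and 799 CPM in WT macrophage-like nuclei, with 13 of 15 higher in TG, and their part was not tested. Genes of cardiomyocyte-like nuclei that were not apart here were KCNJ3 at 346 CPM in TG and 348 CPM in WT, KCNN2 at 142 CPM in TG and 115 CPM in WT, KCNT2 at 116 CPM in TG and 115 CPM in WT and KCNJ8 at 64.8 CPM in TG and 53.99 CPM in WT. After thinning to 1000 UMIs the log2 ratio of KCNAB1 was 0.33, and 30 of its 210 TG UMIs lay in 1 nucleus. At resolution 0.5 that of KCNAB2 was 0.41, so both calls ended. With the free RNA profile taken off, the log2 ratios of KCNQ1, KCNJ4 and KCNAB2 were 3.97, 5.80 and 1.63, each larger than without that step. Under separate clustering, the log2 ratios of KCNQ1 and KCNIP2 were -0.10 and -0.67. Those of KCNJ3, KCNN2 and KCNT2 were -2.76, -2.25 and -2.69 there, so their near-even values rest on the joint clustering. Separate clustering did not treat the libraries alike in this class. It set aside TG macrophage clusters of 313 and 287 nuclei as mixed with cardiomyocytes and kept 515 TG nuclei. In WT it kept macrophage clusters of 1300 and 355 nuclei and set none aside in that way. The part of this in the values was not tested.

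In T or NK lymphocyte-like nuclei (567 in TG and 625 in WT), 32 genes were measured, of which 9 were higher in TG and 7 lower. Over all genes there, 17.6% were higher and 13.5% lower, 31.1% in either direction, and the channel genes' share was 50%. KCNA3, the channel that sustains calcium entry in activated T lymphocytes, stood at 26.3 CPM in TG and 107 CPM in WT and was 4.07-fold lower in TG (interval 3.13 to 5.35). KCNAB2, a beta subunit that binds KCNA channels, stood at 70.9 CPM in TG and 134 CPM in WT and was 1.89-fold lower in TG (interval 1.58 to 2.26). Both were lower in TG together with the lymphocyte markers themselves, whose 12 genes summed to 2349 CPM in TG and 5508 CPM in WT, with 8 lower and none higher in TG. With the free RNA profile taken off, the log2 ratio was -1.28 for KCNA3 and -0.17 for KCNAB2, the second inside the limit. KCNMA1 stood at 30.01 CPM in TG and 52.2 CPM in WT and was called lower, but weighting every nucleus equally gave a log2 ratio of 0.03.

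The genes called higher in T or NK lymphocyte-like nuclei of TG that the naming rule reached were KCNN2, KCNIP2, KCND3, KCNAB1, KCNJ8 and KCNJ13. KCNN2 stood at 203 CPM in TG and 113 CPM in WT, KCNIP2 at 77.3 CPM in TG and 37.3 CPM in WT and KCND3 at 40.5 CPM in TG and 14.5 CPM in WT. KCNAB1 stood at 64.9 CPM in TG and 35.8 CPM in WT, KCNJ8 at 48.4 CPM in TG and 29.8 CPM in WT and KCNJ13 at 31.5 CPM in TG and 14.9 CPM in WT. KCNQ1 at 60.03 CPM in TG and 45.4 CPM in WT and KCNT2 at 135 CPM in TG and 128 CPM in WT were not apart. KCNJ3, a gene of cardiomyocyte-like nuclei, stood at 476 CPM in TG and 336 CPM in WT and was not apart. UMIs of KCNJ3 lay in 25.04% of TG nuclei and 11.8% of WT nuclei, beside cardiomyocyte markers at 47.6% of their cardiomyocyte level in TG and 26.5% in WT. Vascular endothelial markers summed to 1478 CPM in TG and 612 CPM in WT in this class, with 14 of 15 higher in TG, and their part was not tested. With the free RNA profile taken off, the log2 ratio of KCNIP2 was -0.49, the opposite direction, and that of KCNJ8 0.40, inside the limit. That of KCNAB1 rose from 0.85 to 1.98.

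In fibroblast-like nuclei (1988 in TG and 2855 in WT), 38 genes were measured, of which 14 were higher in TG and 9 lower. Over all genes there, 16.9% were higher and 9.06% lower, 25.9% in either direction, and the channel genes' share was 60.5%. Beside KCNQ5, 3 named genes were lower. KCNB2 stood at 2.57 CPM in TG and 27.2 CPM in WT and was 10.6-fold lower in TG (interval 6.31 to 19.1), with 222 CPM in the WT nuclei of cluster 21. KCNS3, a silent subunit that modifies KCNB channels, stood at 21.8 CPM in TG and 46.8 CPM in WT and was 2.15-fold lower in TG (interval 1.77 to 2.63). KCNMA1 stood at 44.04 CPM in TG and 75.7 CPM in WT and was 1.72-fold lower in TG (interval 1.497 to 1.98). The log2 ratio of KCNMA1 was -0.49 when nuclei were kept only up to a mitochondrial share of 1% and -0.35 under separate clustering, both inside the limit.

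KCNN3 stood at 42.7 CPM in TG and 15.1 CPM in WT in fibroblast-like nuclei and was 2.82-fold higher in TG (interval 2.32 to 3.42). KCNN3 was low in cardiomyocyte-like nuclei, at 2.74 CPM in TG and 3.57 CPM in WT, so its fibroblast level exceeded that of cardiomyocytes in both libraries. KCNIP2 at 23.99 CPM in TG and 8.54 CPM in WT, KCNN2 at 24.8 CPM in TG and 10.8 CPM in WT, KCNJ3 at 64.4 CPM in TG and 34.4 CPM in WT, KCNJ13 at 32.7 CPM in TG and 14.99 CPM in WT and KCNAB1 at 51.2 CPM in TG and 28.4 CPM in WT were also called higher. KCNIP2, KCNN2 and KCNJ3 stood higher in cardiomyocyte-like than in fibroblast-like nuclei of both libraries, and the cardiomyocyte markers stood at 23.0% of their cardiomyocyte level in TG fibroblast-like nuclei and 7.23% in WT ones. With mixed clusters counted in, the log2 ratios of KCNN2 and KCNJ3 were 0.53 and 0.32, inside the limit. KCNK2, the stretch-opened two-pore channel, stood at 21.4 CPM in TG and 19.7 CPM in WT and KCNT2 at 97.8 CPM in TG and 90.9 CPM in WT, and neither was apart.

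In lymphatic endothelial-like nuclei (584 in TG and 924 in WT, all of cluster 8), 21 genes were measured, of which 9 were higher in TG and 2 lower. Over all genes there, 12% were higher and 7.88% lower, 19.9% in either direction, and the channel genes' share was 52.4%. KCNN3 stood at 119.9 CPM in TG and 108 CPM in WT, a ratio of 1.11 (interval 0.938 to 1.30). KCND3 stood at 38.8 CPM in TG and 53.98 CPM in WT, a ratio of 0.719 (interval 0.542 to 0.943). Neither was apart. KCNG2, a silent subunit, stood at 11.99 CPM in TG and 26.05 CPM in WT and was 2.17-fold lower in TG (interval 1.36 to 3.63). At a mitochondrial limit of 1% the log2 ratio of KCNG2 was -0.34, inside the limit. KCNB2 stood at 29.1 CPM in TG and 3.57 CPM in WT and was 8.15-fold higher in TG (interval 4.63 to 15.1), from 51 and 17 UMIs. KCNN2 at 50.8 CPM in TG and 14.5 CPM in WT, KCNJ8 at 27.4 CPM in TG and 8.402 CPM in WT, KCNAB1 at 41.7 CPM in TG and 26.5 CPM in WT and KCNJ13 at 30.8 CPM in TG and 16.8 CPM in WT were called higher too. The call of KCNAB1 ended in several settings, with a log2 ratio of 0.50 with nuclei weighted equally, 0.29 at resolution 0.5, 0.28 with KCN genes among the variable genes and 0.56 with the free RNA profile taken off. Under separate clustering the log2 ratio of KCNN2 was -0.01.

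In Schwann-like nuclei (139 in TG and 166 in WT, all of cluster 18), 15 genes were measured, of which 7 were higher in TG and 3 lower. Over all genes there, 11.1% were higher and 9.31% lower, 20.4% in either direction, and the channel genes' share was 66.7%. KCNMB4, the neural beta subunit of the KCNMA1 channel, led in this class in both libraries, at 196 CPM in TG and 359 CPM in WT, and was 1.83-fold lower in TG (interval 1.46 to 2.30). With nuclei thinned to 1000 UMIs its log2 ratio was -0.53, and with the free RNA profile taken off -0.08, both inside the limit. The 10 Schwann markers themselves summed to 11843 CPM in TG and 20341 CPM in WT, with 5 lower and 1 higher in TG. Vascular endothelial markers, mostly higher also in macrophage-like and T or NK lymphocyte-like nuclei of TG, summed to 2011 CPM in TG and 373 CPM in WT in this class. All 14 measured were higher in TG, and their part in these results was not tested. KCNJ3 stood at 391 CPM in TG and 319 CPM in WT and KCNN2 at 141 CPM in TG and 145 CPM in WT, neither apart, beside cardiomyocyte markers at 51.7% of their cardiomyocyte level in TG and 28.2% in WT. KCNT2 at 102 CPM in TG and 90.4 CPM in WT was not apart either. KCNQ3 was lower, at 7.14 CPM in TG and 27.2 CPM in WT, but 12 of its 22 WT UMIs lay in 1 nucleus, and without it the log2 ratio of -1.79 became -1.06. The 7 genes called higher were KCNIP2 at 82.1 CPM in TG and 30.9 CPM in WT, KCNJ2 at 48.2 CPM in TG and 21.04 CPM in WT, KCNJ8 at 60.7 CPM in TG and 25.99 CPM in WT, KCNAB1 at 64.2 CPM in TG and 25.99 CPM in WT, KCND3 at 35.7 CPM in TG and 16.1 CPM in WT, KCNIP4 at 24.98 CPM in TG and 7.43 CPM in WT and KCNJ13 at 41.04 CPM in TG and 14.9 CPM in WT. The log2 ratio of KCNIP4 was 0.50 with nuclei weighted equally, and that of KCND3 0.23 after thinning, both inside the limit.

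Set beside all genes measured in the same class, the share of potassium channel genes apart was near the background in cardiomyocyte-like (40% against 34.4%) and smooth muscle-like nuclei (31.2% against 25.6%) and above it in the other classes. The widest gap, in Schwann-like nuclei (66.7% against 20.4%, 10 genes), was not stable, with 0 genes apart after thinning to 1000 UMIs, 0 with the free RNA profile taken off and 1 at a minimum of 100 UMIs. Other counts fell too. Thinning brought pericyte-like nuclei from 5 genes apart to 0, lymphatic endothelial-like from 11 to 4 and T or NK lymphocyte-like from 16 to 8. Fibroblast-like nuclei went from 23 to 14 at a minimum of 100 UMIs. The share of all genes apart in these settings is not given here. The shares above are descriptions of 2 libraries. The median log2 ratio of the channel genes was 0.29 against 0.05 in fibroblast-like, 0.06 against 0.00 in vascular endothelial-like, 0.59 against 0.01 in lymphatic endothelial-like and 0.55 against 0.06 over all genes in macrophage-like nuclei. Outside the cardiomyocyte-like class, the shares stand beside the higher cardiomyocyte marker levels of TG given above.

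**Figure D5:**
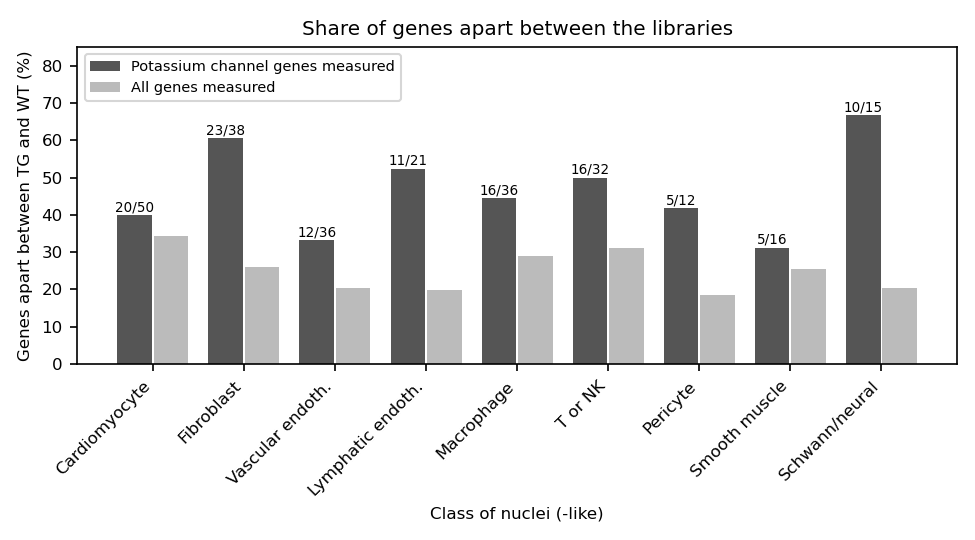
Share of genes apart between TG and WT in each class, for the potassium channel genes measured (dark bars, with the number apart over the number measured) and for all genes measured (light bars). The dark bar is above the light bar in each class, by least in cardiomyocyte-like and smooth muscle-like nuclei.

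Genes that work with potassium channels were read from companion lists. In cardiomyocyte-like nuclei, of 6 anchors and ankyrins measured 1 was lower, CAV3, a scaffold of caveolae, at 42.2 CPM in TG and 66.3 CPM in WT, 1.57-fold lower in TG (interval 1.49 to 1.66). Of 4 sodium-potassium pump genes measured 1 was lower, ATP1B4, a beta subunit relative, at 86.3 CPM in TG and 149 CPM in WT, 1.73-fold lower in TG (interval 1.67 to 1.80). SLC12A1, a cotransporter, was higher, at 1.05 CPM in TG and 0.588 CPM in WT, as the 1 of 5 measured cotransporters apart. None of 7 measured transcriptional regulators, 2 measured BK gamma subunits or 2 sulfonylurea receptors was apart.

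ATP1B1, a pump beta subunit, stood at 289 CPM in TG and 121 CPM in WT in fibroblast-like nuclei, 2.39-fold higher in TG (interval 2.23 to 2.57). ATP1B1 was also higher in pericyte-like nuclei, at 163 CPM in TG and 105 CPM in WT, in lymphatic endothelial-like nuclei, at 57.1 CPM in TG and 20.6 CPM in WT, and in T or NK lymphocyte-like nuclei, at 175 CPM in TG and 114 CPM in WT. Cardiomyocyte markers stood higher in TG in these 4 classes too, as given above. SLC12A2, a sodium-potassium-chloride cotransporter, was lower in fibroblast-like nuclei, at 50.7 CPM in TG and 92.3 CPM in WT, in pericyte-like nuclei, at 454 CPM in TG and 715 CPM in WT, and in smooth muscle-like nuclei, at 43.3 CPM in TG and 77.03 CPM in WT. SLC12A2 was thus lower in TG in the 3 stromal and mural classes. ANK3, an ankyrin that anchors channels, stood at 1151 CPM in TG and 572 CPM in WT in T or NK lymphocyte-like nuclei, 2.01-fold higher in TG (interval 1.89 to 2.14). ANK3 was also higher in fibroblast-like nuclei, at 176 CPM in TG and 102 CPM in WT, and in smooth muscle-like nuclei, at 628 CPM in TG and 417 CPM in WT. ANK3 stood at 2884 CPM in TG and 2804 CPM in WT in cardiomyocyte-like nuclei, and cardiomyocyte markers were at 47.6% of their cardiomyocyte level in TG and 26.5% in WT T or NK lymphocyte-like nuclei. ANK2, a cardiac ankyrin, was higher in pericyte-like nuclei, at 121 CPM in TG and 29.2 CPM in WT, and lower in smooth muscle-like nuclei, at 152 CPM in TG and 269 CPM in WT. SLC12A7, a potassium-chloride cotransporter, was higher in T or NK lymphocyte-like nuclei, at 54.03 CPM in TG and 22.00 CPM in WT.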

How the data were processed

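RNA was measured in single nuclei with 10x Chromium 3' v3.1 chemistry, 1 library per genotype. The deposited values are raw UMI counts per gene and barcode, which the authors made with Cell Ranger 3.1.0 and Seurat 3.1.1 on build Sscrofa11.1 per the submitters' processing notes, while the file header names cellranger 5.0.0. That difference was not resolved, and whether intronic reads were counted was not given in the sources used here. The members and lists were chosen with earlier results of these data known.

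Nuclei with at least 500 genes and at most 5% mitochondrial UMIs were kept, 14939 of 15000 TG and 16725 of 18251 WT barcodes. The shallowest TG nucleus before that held 1972 UMIs and the shallowest WT one 500, so the files were not cut alike. Nuclei were clustered with scanpy 1.11.5 (2000 variable genes without KCN genes, 30 principal components, 15 neighbours, Leiden resolution 1), and mural clusters again at 0.5. To be named, a cluster needed 50% of a class's markers (3 or more) at 20 CPM with a log2 excess of 1 over low clusters, and 3 markers among its 200 leading genes. Clusters with strong markers of an unrelated class were set aside as mixed, 12.6% of TG and 8.25% of WT nuclei, in place of a doublet caller. These naming thresholds were set after seeing the clusters, so differences from the study may come from rebuilt names.

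Counts were summed per class and library and divided by the nuclear-encoded total (CPM). Intervals are exact Poisson for levels and exact conditional binomial for ratios, at 95%, and cover counting error only. Log2 ratios add 0.5 to each count. Values are given for genes that reached 50 CPM in a class, for genes apart at 20 CPM or more, and for a set list of genes of known cardiac or vascular role whatever their level. Of that list, KCNJ12 and KCNA5 are not analysed here, and some other genes of the lists are not reported here. Apart from those not reported, genes of the companion lists are named when apart in cardiomyocyte-like nuclei or apart at 50 CPM elsewhere. Thinned shares have exact binomial intervals. The interval was tested on simulated Poisson counts. These had no clumping of UMIs in single nuclei and no variation between libraries, so the coverage of the interval in the real data was not tested. Genes overlapping another annotated gene were 26 of 84 located, 13 of them over a protein-coding gene, in RefSeq for Sscrofa11.1. Of 31908 genes, 16498 had a symbol in the files, and 851 more were named by the reference table. Alternatives were deeper or cleaner nuclei, TMM factors from edgeR 4.0.16, a total without the most abundant gene, equal weight per nucleus, thinning to 1000 UMIs, other clusterings (resolution 0.5, each library separately, KCN genes let in, mixed clusters counted in, shared clusters alone), other thresholds, and subtraction of each library's overall profile scaled to the cardiomyocyte markers of a class (free RNA).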

Additional observations from a re-analysis of the deposited data

Results flagged for a closer look

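For 6 genes the difference between TG and WT had opposite directions in different classes, counting only classes where the gene reached 20 CPM. Each value was past the limit of 1.5-fold as reported, and the difference between classes was not tested. With calls at lower levels counted too, KCNA3, KCNG2, KCNJ16, KCNMA1 and KCNQ5 also had calls in both directions. The share of all genes with calls in both directions is not given here. With 1 library per genotype each class gives 1 ratio. KCNN2 had a log2 ratio of TG over WT of -0.64 in cardiomyocyte-like nuclei, but 1.20 in fibroblast-like, 1.58 in vascular endothelial-like, 1.81 in lymphatic endothelial-like, 0.85 in T or NK lymphocyte-like and 2.38 in smooth muscle-like nuclei. KCNT2 had -0.73 in cardiomyocyte-like and 1.73 in pericyte-like nuclei. KCNN3 had 1.49 in fibroblast-like and -2.45 in vascular endothelial-like nuclei. KCNB2 had -3.36 in fibroblast-like and -1.23 in vascular endothelial-like nuclei, and 3.00 in lymphatic endothelial-like nuclei. Of the 51 UMIs of KCNB2 in TG lymphatic endothelial-like nuclei, 13 lay in 1 nucleus. KCNIP1 had -2.31 in macrophage-like and 1.67 in smooth muscle-like nuclei. KCNAB2 had 1.01 in macrophage-like and -0.91 in T or NK lymphocyte-like nuclei. Several of these did not hold: KCNAB2 was 0.41 in macrophage-like nuclei at resolution 0.5 and -0.17 in T or NK lymphocyte-like nuclei with the free RNA profile taken off. With mixed clusters counted in, KCNN2 was -0.64 in smooth muscle-like, KCNN2 0.53 in fibroblast-like and KCNT2 0.09 in pericyte-like nuclei. With the libraries clustered separately, KCNN2 was -0.0104 in lymphatic endothelial-like nuclei. In cardiomyocyte-like nuclei KCNN2 was -0.52 with the total taken without the most abundant gene.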

How the results depend on the processing

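Ratios were recomputed under 15 kinds of alternative, and 1 more, leaving out the nucleus with the most UMIs of a gene, was added after seeing the data. No paired analysis was possible because each genotype had 1 library. Over 101 named values, 1152 recomputed values gave 942 that stayed within the limits, 197 that moved and 13 where a value called higher or lower changed direction. Values not called apart could change sign without being among the 13. KCNJ3 in vascular endothelial-like nuclei did so, from a log2 ratio of 0.20 to -3.01 with the libraries clustered separately. Of 74 named calls, 43 held under every alternative that gave a value. The number of potassium channel genes apart ranged from 10 to 23 in cardiomyocyte-like, 14 to 27 in fibroblast-like, 9 to 20 in vascular endothelial-like and 11 to 22 in macrophage-like nuclei. Thinning to 1000 UMIs gave 11 genes apart in cardiomyocyte-like, 4 in lymphatic endothelial-like, 8 in T or NK lymphocyte-like, 0 in pericyte-like, 1 in smooth muscle-like and 0 in Schwann-like nuclei, and 12 genes leading in the same class, with fewer UMIs to count. A minimum of 100 UMIs gave 14 in fibroblast-like, 4 in lymphatic endothelial-like, 10 in T or NK lymphocyte-like, 0 in pericyte-like, 2 in smooth muscle-like and 1 in Schwann-like nuclei, with fewer genes measured. With the free RNA profile taken off there were 6 in lymphatic endothelial-like, 6 in T or NK lymphocyte-like, 2 in pericyte-like and 0 in Schwann-like nuclei. A ratio of at least 2 left 10 in cardiomyocyte-like and 8 in T or NK lymphocyte-like nuclei. A mitochondrial limit of 1% left 3 in smooth muscle-like nuclei. Clustering each library on its own gave 20 (4 higher and 16 lower) in vascular endothelial-like nuclei, and counting mixed clusters in gave 15 in pericyte-like nuclei. The cause was not tested for the last 3 settings. The share of all genes apart under each alternative is not given here, so these counts have no background beside them. The log2 ratio changed direction for KCNMA1 in T or NK lymphocyte-like nuclei with nuclei weighted equally (0.029), and for KCNJ16 in pericyte-like nuclei at resolution 0.5 (1.12) and with libraries clustered on their own (2.43). Separate clustering also turned KCNN2 in lymphatic endothelial-like (-0.0104), KCNQ1 (-0.10), KCNIP2 (-0.67) and KCND3 (-0.53) in macrophage-like, and KCNIP2 (-0.48) and KCNJ8 (-0.0376) in vascular endothelial-like nuclei. Counting mixed clusters in turned KCNN2 (-0.64) and KCNJ3 (-1.86) in smooth muscle-like nuclei. Taking off the free RNA profile turned KCNMA1 in smooth muscle-like (0.11) and KCNIP2 in T or NK lymphocyte-like nuclei (-0.49). Why these turned was not tested, and separate clustering compared other sets of nuclei, as given above. TMM factors shifted log2 ratios by -0.11 to 0.02. Clusters shared by both libraries gave no value for cardiomyocyte-like, fibroblast-like or smooth muscle-like nuclei, and resolution 0.5 none for cardiomyocyte-like nuclei. The pericyte-like, smooth muscle-like and Schwann-like classes held few nuclei (139 to 284), and 12, 16 and 15 genes had 20 UMIs there.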

Other observations

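Nuclei outside the 9 compared classes held some of the highest levels of the immune channel genes. Cluster 22, a dendritic-like cluster led by CLNK, WDFY4 and XCR1, held 29 TG and 128 WT nuclei, and its WT nuclei had 286 CPM of KCNIP1, 213 CPM of KCNA3 and 108 CPM of KCNK13. Cluster 26, set aside as mixed and led by KIT, HPGDS and HDC, held 23 TG and 56 WT nuclei. Its WT nuclei had 348 CPM of KCNIP1 and 337 CPM of KCNQ1. In cluster 15, which took no name (288 TG and 277 WT nuclei, led by TBXAS1 and DOCK2), KCNK13 stood at 141 CPM in TG and 300.2 CPM in WT and KCNQ5 at 69.2 CPM in TG and 346 CPM in WT. KCNIP1 was near 0 in cluster 15, at 3.07 CPM in TG and 2.17 CPM in WT.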
